A study of Mus musculus with 33 samples.

Results

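The antioxidant response was followed through 10 genes chosen by name: Nfe2l2, Hmox1, Nqo1, Gclc, Gclm, Sod2, Txnrd1, Srxn1, Slc7a11 and Cat. Each was found by its symbol as 1 of the 37991 Ensembl identifiers counted in every library, and all 10 passed the filter on low counts in every comparison. Read counts were available for 33 RNA-seq libraries of the mouse E14TG2a embryonic stem cell (mESC) line, taken as undifferentiated mESCs, as embryoid bodies harvested on day 8 (EBs), and as EBs given 5 µM retinoic acid from day 4 and harvested on day 8 (EBs + RA). Neil1-deficient (clones #7, #9 and #11), Neil2-deficient (#1, #11 and #14) and control lines (#1, #4 and #7) had 3 clones each at every stage, numbered replicates 1 to 3 in that order. Apex1-deficient cells were 1 clone (#46) sequenced in technical duplicate, so its values describe a single clone and its duplicates were summed for every test. Control lines had received the Cas9 plasmid without a guide, all lines had gone through puromycin selection and colony picking, and the media of all stages contained the reducing agent 2-mercaptoethanol.

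NRF2, the product of Nfe2l2, is a transcription factor that the adaptor KEAP1 holds in the cytoplasm and marks for degradation. Oxidants and electrophiles modify KEAP1, and NRF2 then accumulates, pairs with small MAF proteins and binds antioxidant response elements near genes for glutathione synthesis, thioredoxin recycling, quinone reduction and heme breakdown, while BACH1 represses part of the same genes, above all Hmox1. Because this control acts mainly on the protein, the mRNA level of Nfe2l2 is no readout of NRF2 activity. NEIL1 and NEIL2 are DNA glycosylases that excise oxidised bases, and APEX1 cuts the abasic sites that glycosylases leave and also reduces cysteines of several transcription factors.

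Promoter sequence bears on this group because the core of the antioxidant response element, TGACNNNGC, is the site shared by NRF2 targets. RefSeq windows of the assembly GRCm38.p6, from 250 bases before to 50 bases after a gene start, were at hand for 8 of the 10 genes. These were all members but Hmox1 and Gclc, with 10 windows, and sites further from the start were not searched. The core, read on both strands, occurred in 12.4% of all 32851 windows and in windows of 4 members, Nfe2l2, Gclm, Srxn1 and 1 of the alternative starts of Txnrd1. The AP-1 element TGANTCA occurred in 7.81% of windows and the longer TGANTCAGC, which contains it, in 1.19%. Srxn1 alone among the members had these, with TGAGTCA beginning 102 and 45 bases before its start, the nearer one extended to TGAGTCAGC. The core of Srxn1 began 28 bases after its start, on the other strand, and lies outside the stretch shown. The Srxn1 and Gclm stretches are printed to the base before the start, and the Nfe2l2 and Txnrd1 stretches around the core only. Capitals mark the matches, and each sequence reads 5′ to 3′ along its gene. These letters were found by sequence alone, and no binding was measured.
Srxn1, chr2:152105274-152105523, plus strand: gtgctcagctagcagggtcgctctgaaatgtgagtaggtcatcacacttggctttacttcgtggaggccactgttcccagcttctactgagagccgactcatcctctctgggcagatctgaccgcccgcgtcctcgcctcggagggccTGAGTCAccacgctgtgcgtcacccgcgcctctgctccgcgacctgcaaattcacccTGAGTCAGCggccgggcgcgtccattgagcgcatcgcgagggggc
Gclm, chr3:122245307-122245556, plus strand: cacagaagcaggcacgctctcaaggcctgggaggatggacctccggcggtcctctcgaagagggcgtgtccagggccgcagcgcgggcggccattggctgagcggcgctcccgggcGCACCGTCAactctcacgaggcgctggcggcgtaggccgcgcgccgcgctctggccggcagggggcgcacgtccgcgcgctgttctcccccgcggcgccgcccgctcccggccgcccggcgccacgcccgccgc
Nfe2l2, chr2:75704885-75704913, minus strand: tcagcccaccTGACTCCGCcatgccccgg
Txnrd1, chr10:82859104-82859132, plus strand: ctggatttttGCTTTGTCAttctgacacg

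Libraries held 21523742 to 48350904 counts on genes, with a median of 26720028, and levels are given as counts per 1000000 counts on genes (CPM), with library sizes scaled by TMM. The gene counts do not test the knockouts, because the planned deletions of 584 to 587 bases leave 83.5% of the exon bases of Neil1, 92.0% of Neil2 and 66.0% of Apex1 in place. The exon bases of Apex1 that no other gene shares all lie outside its deletion, and Apex1 stood at 73.1 and 77.2 CPM in the Apex1-deficient mESC duplicates against 7.76 to 17.8 CPM in controls. Of the other targeted genes, Neil1 stood at 31.5, 2.48 and 7.37 CPM in the mESC libraries labelled Neil1 #7, #9 and #11 (controls 7.62 to 9.85 CPM), and Neil2 at 17.9, 6.61 and 9.37 CPM in the EB libraries labelled Neil2 #1, #11 and #14 (controls 6.45 to 10.7 CPM). In the mESC library labelled Neil1 clone #11, 345 of the 511 chromosome X genes that had 10 or more counts in all other mESC libraries had no count, whereas G6pdx, one of them, stood at 173 and 77.8 CPM in the EBs and EBs + RA libraries of that label. Whether that mESC library and these are the same cells was not tested, and the Neil1 values for mESCs and for the step to EBs rest on it in part. None of the 10 members lies on chromosome X. In bulk RNA a change in the number of cells of a type and a change in RNA per cell cannot be told apart. This applies most to EBs + RA, where the 4 neural markers summed to 259 to 443 CPM in controls and to 41.8 to 79.8 CPM in the mutant libraries.

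In undifferentiated mESCs no member was called in any mutant, where called means that edgeR's quasi-likelihood test gave a false discovery rate (FDR) under 0.1 with a log2 fold change beyond 0.5 in size. Few genes of any kind were called at this stage, 1.82% of those tested for Neil1 (1.03% higher, 0.784% lower), 1.83% for Neil2 (1.40% and 0.429%) and 2.07% for Apex1 (1.20% and 0.870%). At an unadjusted p under 0.05 in edgeR there were 1, 0 and 4 members, against 2387 of 15569, 2361 of 15615 and 3025 of 16557 genes. DESeq2 called 0, 0 and 1 members. The low share rested on control clone #7: without it 12.6% of all genes were called for Neil1, 9.35% for Neil2 and 18.0% for Apex1, with 0, 0 and 3 members, and DESeq2 on all libraries called 6.42%, 5.19% and 10.2% of genes. In EBs, Nqo1, Gclm and Sod2 rose in Neil1-deficient cells, Sod2 alone rose in Neil2-deficient cells, and Nqo1, Gclc and Gclm rose in Apex1-deficient cells. In EBs + RA, Nfe2l2, Hmox1, Nqo1, Gclm and Cat rose in Neil1-deficient cells and Hmox1, Nqo1, Gclm and Sod2 in Neil2-deficient cells, while none of the 10 was called in Apex1-deficient cells. No member was called lower in any mutant at any stage.

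These counts stand against a strong general shift at the later stages. Neil1-deficient EBs had 3 members called and all 3 higher, where 23.5% of all tested genes were called, 10.4% higher and 13.1% lower. In Neil2-deficient EBs the count was 1 of 10 with 16.3% of all genes called, 8.65% higher and 7.69% lower. In Apex1-deficient EBs it was 3 of 10 with 9.20% called, 4.26% higher and 4.94% lower. These Apex1 EBs also differed in their cells: the 7 endoderm markers summed to 59.9 and 76.3 CPM against 215 to 565 CPM in controls, 3 of them called lower, and 4 of 5 pluripotency markers were called higher. The part of this in the 3 calls was not tested. For EBs + RA the count was 5 of 10 for Neil1 with 41.1% of all genes called, 21.2% higher and 19.9% lower. It was 4 of 10 for Neil2 with 34.9% called, 18.3% higher and 16.6% lower. For Apex1 it was 0 of 10 by edgeR, with 7.48% of all genes called, 5.13% higher and 2.35% lower. DESeq2 also called 0 of 10, with 11.2% of all genes called. At an unadjusted p under 0.05 in edgeR there were 2 members, against 3261 of 16999 genes. The median log2 fold change of the members was 0.67 for Neil1, 0.43 for Neil2 and 0.24 for Apex1 in EBs + RA, and it was 0.0015, 0.0047 and -0.010 over all genes in the same comparisons. All mutants of a stage were compared with the same 3 control libraries, so that a control library that is high or low moves all 3 comparisons together.

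**Figure D1:**
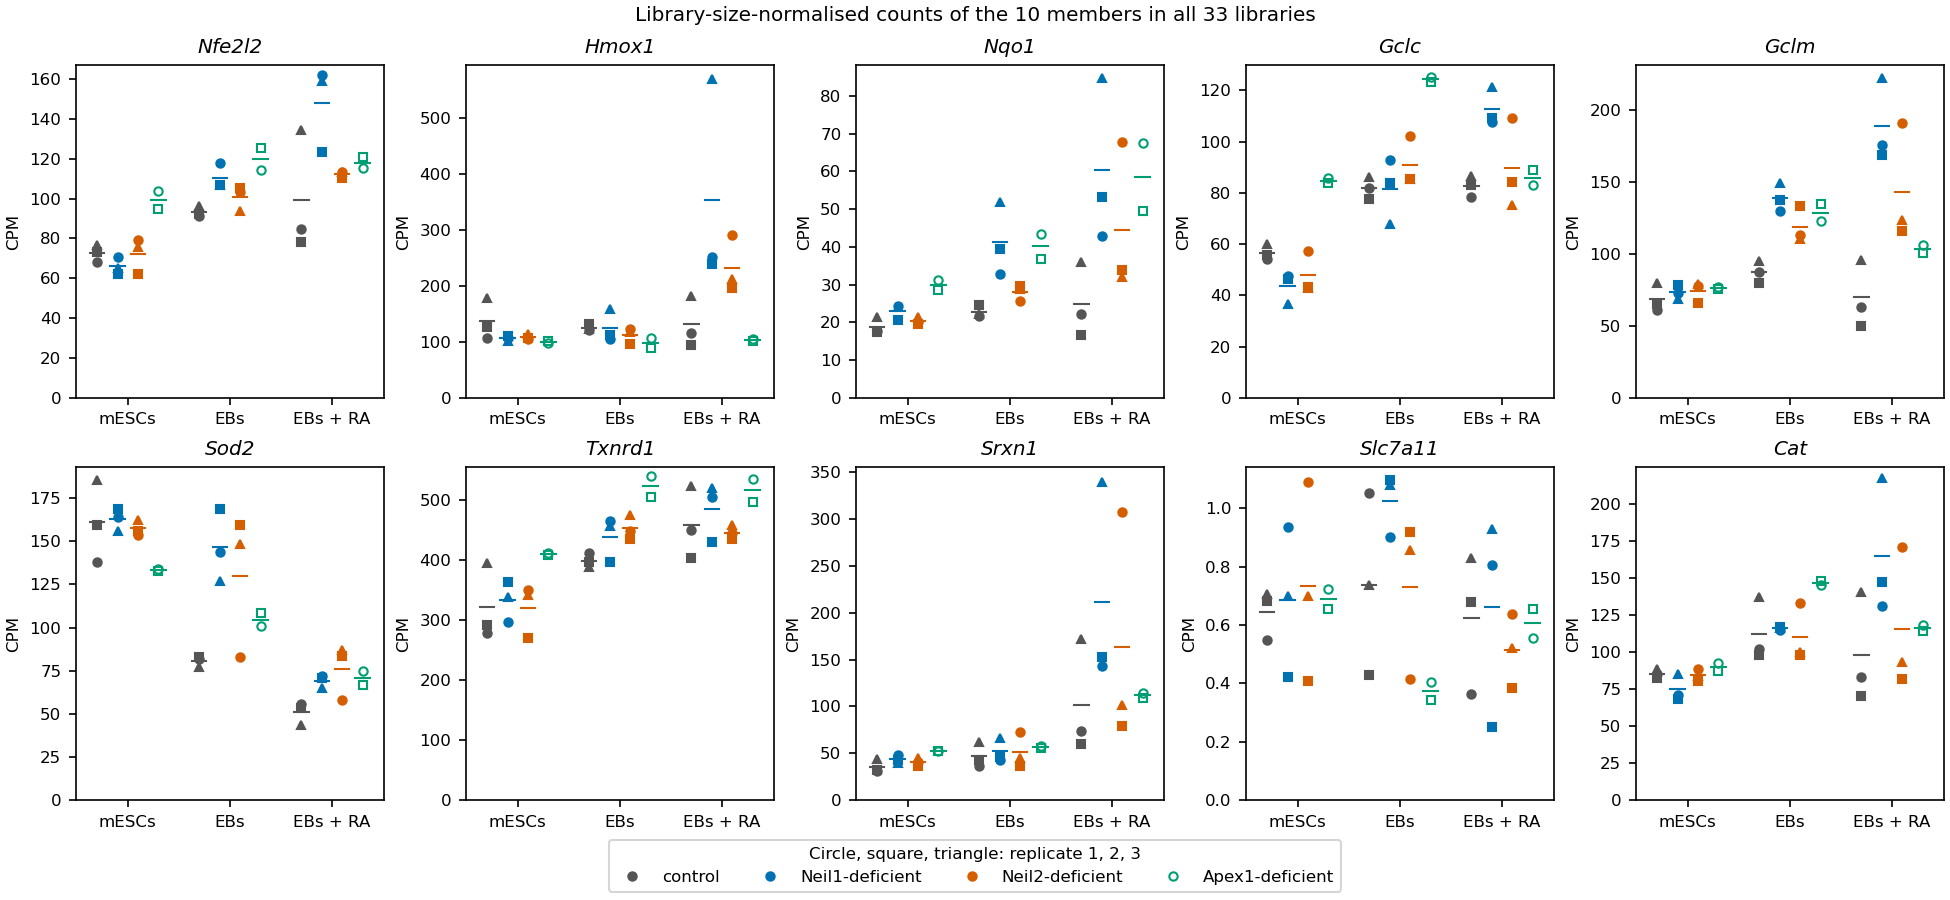
Level in CPM (y axis) of each of the 10 members in the 33 libraries, by stage on the x axis and genotype by colour, with circles, squares and triangles for replicates 1, 2 and 3, open symbols for the technical duplicates of the Apex1 clone, and bars for group means. In EBs + RA the Neil1- and Neil2-deficient libraries of Hmox1 (196 to 571 CPM) and Gclm (116 to 223 CPM) sit above the 3 controls, while Txnrd1 stays between 403 and 536 CPM in all genotypes.

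Nfe2l2 (chr2:75513570-75542698 of NCBIM37, minus strand) was moderately expressed, and all control EBs lay above all control mESCs. Control mESCs held 68.3, 73.3 and 76.6 CPM, and control EBs held 91.1, 92.4 and 96.2 CPM. In EBs + RA the controls spread to 85.0, 78.2 and 135 CPM against 162, 124 and 159 CPM in Neil1-deficient cells, so that the groups overlapped through control clone #7. The log2 fold change there was 0.58 ± 0.22 (SE, n = 3 clones against 3, FDR = 0.070, edgeR), but without any 1 of control #1, control #4, Neil1 #7 or Neil1 #11 the call was lost, with values of 0.43 to 0.53. Neil2-deficient cells, at 114, 110 and 114 CPM, were not called (0.20 ± 0.20). In Apex1-deficient mESCs, at 104 and 94.6 CPM, both duplicates lay above all controls, and the log2 fold change of 0.42 ± 0.17 (FDR = 0.22) did not pass.

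Nqo1 (chr8:109912125-109927106, minus strand), which encodes the quinone reductase often used as the marker of NRF2 activity, was the member called in the most comparisons with control, together with Gclm. Control EBs held 21.6, 24.5 and 22.3 CPM, and Neil1-deficient EBs held 32.7, 39.6 and 51.8 CPM, all above the controls. The log2 fold change was 0.86 ± 0.16 (FDR = 0.0024), and it was called in all 6 fits that left out 1 library. The Neil2-deficient EBs, at 25.7, 29.7 and 29.0 CPM, also lay above the controls without passing (0.32 ± 0.13, FDR = 0.17).

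In EBs + RA, Nqo1 stood at 22.2, 16.5 and 35.9 CPM in controls and at 43.0, 53.2 and 84.8 CPM in Neil1-deficient cells, again without overlap, and rose by 1.28 ± 0.33 on the log2 scale (FDR = 0.020). Neil2-deficient cells held 67.9, 33.9 and 32.0 CPM, where clone #1 alone exceeded the highest control. Their log2 fold change of 0.86 ± 0.36 was just inside the limit (FDR = 0.099) and was lost without Neil2 clone #1 (0.42, FDR = 0.31), control #1 (0.78, FDR = 0.26) or control #4 (0.63, FDR = 0.27).

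In the Apex1 clone Nqo1 lay above every control at all 3 stages. It held 31.3 and 28.5 CPM in mESCs against 17.5 to 21.3 CPM in controls (0.64 ± 0.18, FDR = 0.12), and passed there at 0.75 (FDR = 0.036) without control clone #7, a fit that called 18.0% of all genes. In EBs it held 43.5 and 36.8 CPM (0.81 ± 0.22, FDR = 0.056), a call lost without any 1 of the 3 controls or without the first duplicate (0.67 to 0.86, FDR = 0.10 to 0.14). In EBs + RA it held 67.5 and 49.6 CPM, and the log2 fold change of 1.24 ± 0.50 did not pass (FDR = 0.21), while it passed at 1.59 (FDR = 0.089) without control clone #7, a fit that called 11.7% of all genes.

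Hmox1 (chr8:77617490-77624495, plus strand), the heme oxygenase that is both an NRF2 and a BACH1 target, was called against control in EBs + RA and at no other stage. Controls held 116, 94.8 and 183 CPM, Neil1-deficient cells 253, 239 and 571 CPM, and Neil2-deficient cells 291, 196 and 212 CPM, and neither mutant group overlapped the controls. The log2 fold change was 1.44 ± 0.38 for Neil1 (FDR = 0.022) and 0.85 ± 0.25 for Neil2 (FDR = 0.034). The highest Neil1 library was clone #11, and without it the value was 0.91 and still called. For Neil2 the call was lost without control clone #1 (0.76, FDR = 0.13) and without control clone #4 (0.66, FDR = 0.11).

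No rise of Hmox1 was called in Apex1-deficient cells. Their EBs + RA held 104 and 101 CPM, within the control range, with a log2 fold change of -0.32 ± 0.51 (FDR = 0.79). Against the mean of the Neil1- and Neil2-deficient groups at that stage the difference was -1.46 ± 0.53 (FDR = 0.12), which did not pass, although DESeq2's Wald test called it. In mESCs and EBs the log2 fold changes of Hmox1 in the 3 mutants lay between -0.49 and 0.01, none called, and in mESCs both Apex1 duplicates (98.6 and 102 CPM) lay below all controls (107 to 179 CPM).

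**Figure D2:**
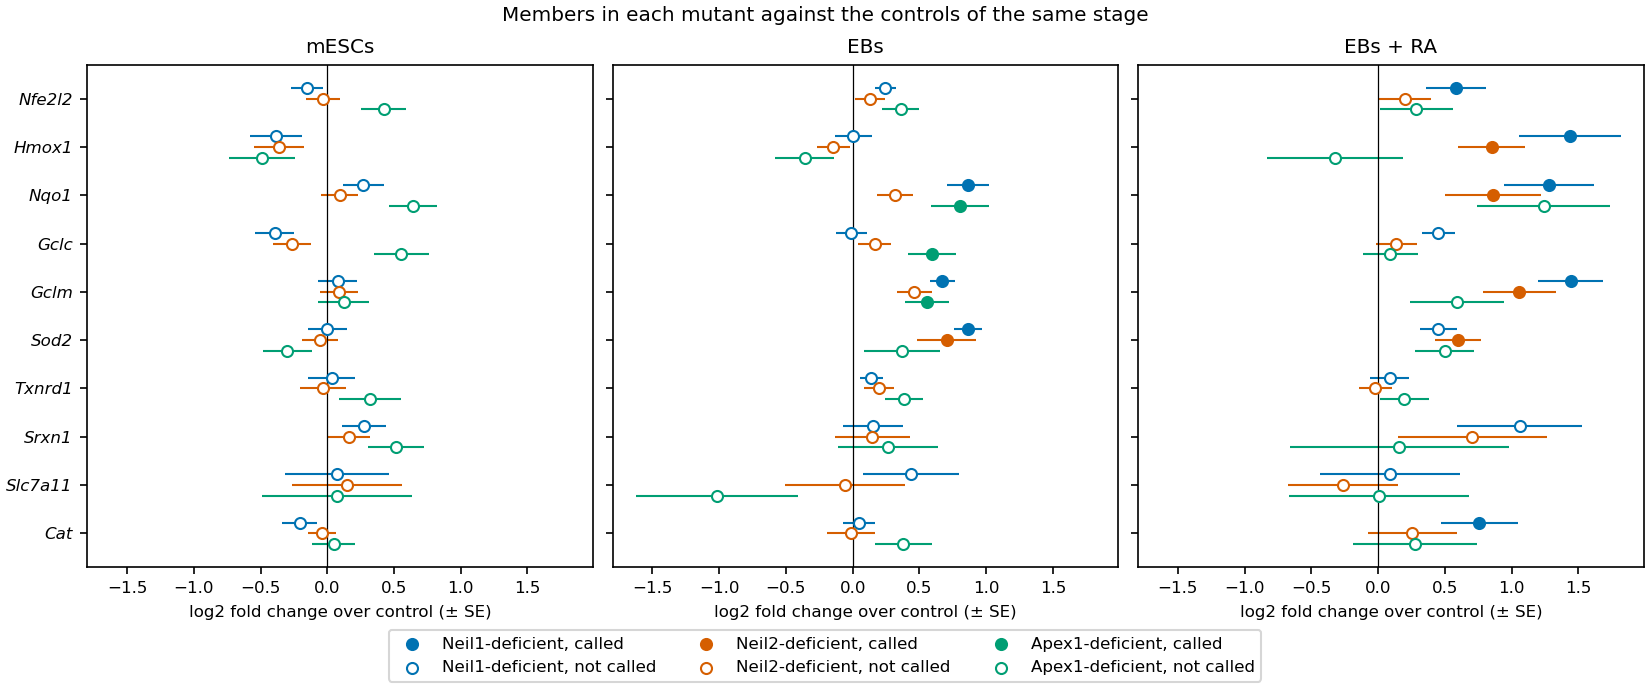
Log2 fold change over the controls of the same stage (x axis, points with standard errors) for the 10 members (y axis) in mESCs, EBs and EBs + RA, with filled points for those called. No point is filled in mESCs, and in EBs + RA the filled points are those of Neil1 (5) and Neil2 (4), all to the right of 0.

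The first enzyme of glutathione synthesis is glutamate-cysteine ligase, of which Gclc encodes the catalytic subunit and Gclm the modifier. Gclm (chr3:121948475-121972902, plus strand; 296 of its 5137 exon bases overlap Gm17494 on the opposite strand) was not called in any mutant mESCs. Control EBs held 87.5, 79.7 and 94.8 CPM, Neil1-deficient EBs 130, 138 and 149 CPM, and Neil2-deficient EBs 113, 133 and 111 CPM, both without overlap. The log2 fold change was 0.67 ± 0.09 for Neil1 (FDR = 0.00042), and the 0.46 ± 0.13 of Neil2 (FDR = 0.051) was under the limit on size.

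In EBs + RA, Gclm was the one member called for both Neil lines in every fit that left out 1 library. Controls held 63.5, 50.2 and 95.9 CPM, Neil1-deficient cells 176, 169 and 223 CPM, and Neil2-deficient cells 191, 116 and 123 CPM. Every mutant library of both lines exceeded every control. The rise was 1.44 ± 0.24 on the log2 scale for Neil1 (FDR = 0.0033) and 1.06 ± 0.27 for Neil2 (FDR = 0.020). The Apex1 duplicates, at 106 and 101 CPM, also lay above the controls but by less (0.59 ± 0.35, FDR = 0.40). In EBs the Apex1 duplicates held 123 and 135 CPM, and the change of 0.56 ± 0.16 was called (FDR = 0.073) but was lost without control #1 (0.56, FDR = 0.16), control #4 (0.49, FDR = 0.21) or the second duplicate (0.49, FDR = 0.11).

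Gclc (chr9:77602342-77642292, plus strand) was called between genotypes only for Apex1, in EBs against control and in mESCs against the Neil groups. In mESCs the Neil1-deficient libraries held 47.6, 46.5 and 36.6 CPM, all below the controls at 54.1, 55.9 and 60.1 CPM, and the Apex1 duplicates held 85.8 and 83.8 CPM, above them, none called (-0.40 ± 0.14, FDR = 0.26 for Neil1 and 0.55 ± 0.21, FDR = 0.20 for Apex1). Set directly against the mean of both Neil groups, Apex1-deficient mESCs were higher by 0.88 ± 0.19 (FDR = 0.022), and Gclc and Nfe2l2 were the 2 members called there, both higher, with 15.5% of all genes called and 8.50% higher. In EBs the Apex1 clone, at 125 and 123 CPM against 82.0, 77.7 and 86.3 CPM, rose by 0.59 ± 0.18 (FDR = 0.083), a call lost without any 1 control (0.55 to 0.63, FDR = 0.12 to 0.21), and the Neil1-deficient libraries (92.7, 84.0 and 67.8 CPM) straddled the controls. In EBs + RA the order was the other way, with 108, 109 and 121 CPM in Neil1-deficient cells against 78.5, 83.3 and 86.7 CPM in controls (0.45 ± 0.12, FDR = 0.021, under the limit on size) and 83.0 and 88.8 CPM in the Apex1 duplicates.

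Slc7a11 (chr3:50168858-50247535, minus strand), the cystine transporter that supplies glutathione synthesis and a common NRF2 and ATF4 target, was close to silent. Its levels ran from 0.250 to 1.10 CPM over all 33 libraries, and no comparison called it. Standard errors of its log2 fold changes over control were 0.36 to 0.67, and even its change of -1.02 ± 0.61 in Apex1-deficient EBs did not pass (FDR = 0.38).

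Among the thioredoxin genes, Txnrd1 (chr10:82296696-82360469, plus strand), which encodes the cytosolic thioredoxin reductase, was the most abundant member per length in controls at all stages. Control means were 322 ± 64.3 CPM in mESCs, 399 ± 11.7 in EBs and 459 ± 61.3 in EBs + RA (SD, n = 3), and log2 fold changes in the 3 mutants ran from -0.03 to 0.38 without a call. The Apex1 clone was above all controls in mESCs (412 and 409 CPM) and EBs (541 and 506 CPM).

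Srxn1 (chr2:151931252-151937112, plus strand), sulfiredoxin, which restores overoxidised peroxiredoxins and is a sensitive NRF2 and AP-1 target, spread widely between clones. In EBs + RA the controls held 73.6, 60.0 and 172 CPM, Neil1-deficient cells 144, 152 and 340 CPM, and Neil2-deficient cells 308, 79.3 and 102 CPM. The highest library was 2.87-fold above the lowest in controls and 3.88-fold in the Neil2 group, ratios above those of 95.3% and 97.2% of all genes, and the groups overlapped. The log2 fold change was 1.06 ± 0.47 for Neil1 (FDR = 0.11) and 0.70 ± 0.56 for Neil2 (FDR = 0.36). Without control clone #7 the Neil1 value was 1.67 and called (FDR = 0.017), as it was without Neil1 #7 (1.28, FDR = 0.085) or Neil1 #9 (1.25, FDR = 0.098). It was also called with the replicate number as a block (1.10, FDR = 0.0019), but these numbers name different clones in the 2 groups. The only ground for that pairing is a correlation of 0.23 to 0.30 in the same libraries, so that this FDR is no separate support.

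The enzymes that remove superoxide and hydrogen peroxide followed patterns of their own. Sod2 (chr17:13200705-13210985, plus strand), the mitochondrial superoxide dismutase, is as much an NF-κB as an NRF2 target, and it fell with differentiation in controls, from 138, 159 and 186 CPM in mESCs to 81.8, 82.8 and 77.0 CPM in EBs. Neil1-deficient EBs held 144, 169 and 127 CPM, nearly the level of mESCs, and the difference of 0.86 ± 0.11 was called (FDR = 0.00019) in all 6 fits without 1 library. Neil2-deficient EBs were split, with 82.7 CPM in clone #1 and 159 and 148 CPM in clones #11 and #14. Their change of 0.71 ± 0.22 (FDR = 0.074) was called in 1 of the 6 fits without 1 library, that without clone #1, and the values of the other 5 were 0.52 to 0.72 (FDR = 0.15 to 0.24). The 5 pluripotency markers, which as Sod2 are highest in mESCs, were ordered alike in EBs: their sum was 1536 to 1590 CPM in controls, 2376 to 2745 CPM in Neil1-deficient cells, and 1795 CPM in Neil2 clone #1 against 2817 and 2575 CPM in clones #11 and #14. The Apex1 duplicates had 2631 and 2815 CPM of these markers with 101 and 109 CPM of Sod2. The part of undifferentiated cells in the Sod2 level was not tested.

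In EBs + RA the Sod2 level was lower than in EBs in control and both Neil genotypes, each called. The controls held 55.4, 53.6 and 43.4 CPM and Neil2-deficient cells 58.1, 83.2 and 87.0 CPM (0.60 ± 0.17, FDR = 0.030), a call lost without control #7 (0.49) or Neil2 #14 (0.50, FDR = 0.11), while Neil1-deficient cells, at 71.9, 70.6 and 64.9 CPM, were also all above the controls but under the limit on size (0.45 ± 0.14, FDR = 0.036).

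Cat (chr2:103294006-103325317, minus strand), catalase, was called against control only in Neil1-deficient EBs + RA. These held 131, 147 and 217 CPM against 83.1, 70.5 and 140 CPM in controls, where control clone #7 reached into the mutant range. The log2 fold change of 0.76 ± 0.29 (FDR = 0.069) was lost without control #1, control #4 or Neil1 #11 (0.51 to 0.64). Neil2-deficient cells were spread over 171, 81.7 and 93.0 CPM and were not called (0.26 ± 0.33).

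Compared per kilobase of exon, the order of the members in control mESCs was Txnrd1 (80.2 CPM per kb), Hmox1 (63.8), Sod2 (42.1), Cat (32.6), Nfe2l2 (19.2), Gclc (16.6), Gclm (13.4), Srxn1 (12.7), Nqo1 (12.1) and Slc7a11 (0.0574). Txnrd1 and Hmox1 overlapped over the 3 clones, and so did Gclm with Srxn1 and Srxn1 with Nqo1. In control EBs Sod2 had dropped from the third to the sixth place at 21.1 CPM per kb, and in control EBs + RA to the ninth at 13.3, while Srxn1 had moved up to the fourth at 36.1 ± 21.7 CPM per kb.

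Within the groups, single clones were the highest for most members in EBs + RA. Control clone #7 was the highest of the 3 controls for 9 of the 10 members, Neil1 clone #11 was the highest of its group for 8 and Neil2 clone #1 for 8. The same libraries were the highest for 40.0%, 39.0% and 40.4% of all genes with a mean of at least 10 counts in their groups. The exceptions were Sod2 in all 3 groups, Nfe2l2 in the Neil1 group and Txnrd1 in the Neil2 group. Control clone #7 was also the highest control for all 10 members in mESCs, where it was the highest for 40.2% of all genes. In EBs it was the highest for 5 of 10, near its 38.7% of all genes.

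The high libraries also stood out in other measures. Control clone #7 had the highest summed level of the 7 endoderm markers among controls in EBs + RA, 269 CPM against 96.2 and 57.1 CPM, and the lowest neural sum, 259 CPM against 443 and 422 CPM. Neil2 clone #1 likewise had the highest endoderm sum of its group (325 CPM against 74.7 and 223 CPM) and the lowest pluripotency sum (134 CPM against 489 and 378 CPM). Neil1 clone #11 had the highest macrophage sum (98.1 CPM against 45.1 and 45.5 CPM) and endothelial sum (139 CPM against 35.2 and 26.5 CPM) but not the highest endoderm sum (413 CPM against 272 and 476 CPM). Its pluripotency sum was the lowest (132 CPM against 275 and 252 CPM), as was that of control #7 (109 CPM against 132 and 155 CPM). Macrophage sums were also highest in control #7 (23.8 CPM against 17.8 and 15.5 CPM) and Neil2 #1 (41.0 CPM against 29.6 and 35.7 CPM). Endothelial sums of control #7 and Neil2 #1 were instead the lowest of their groups (31.0 and 20.4 CPM). The part of these cell types in the levels of the members was not tested. Without control clone #7, 6 members were called in Neil1- and 3 in Neil2-deficient EBs + RA, with 44.2% and 40.1% of all genes called. Without Neil1 clone #11 the Neil1 count was 3, with 38.7% of all genes called. Without Neil2 clone #1 the Neil2 count was 3, with 36.1% of all genes called.

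**Figure D3:**
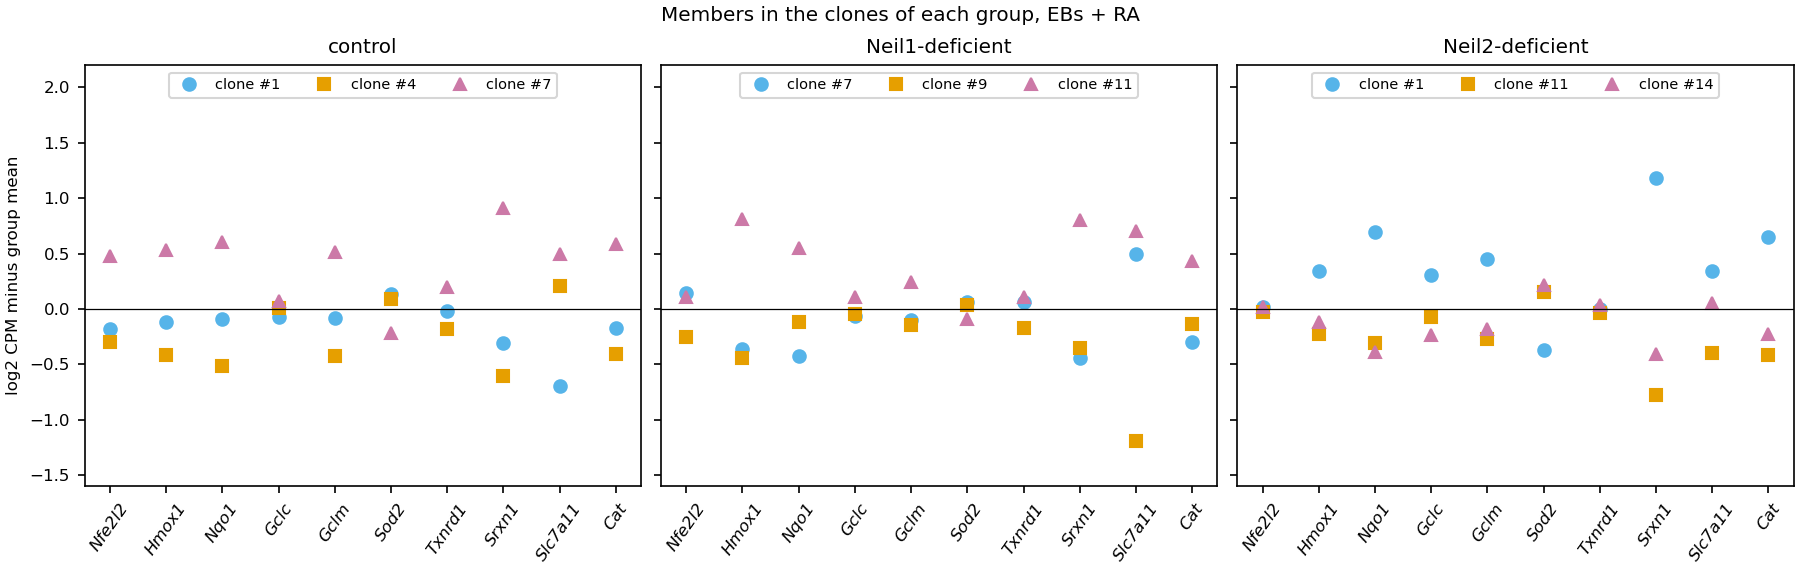
Log2 CPM of each member (x axis) in EBs + RA minus the mean of its group (y axis), for the 3 clones of the control, Neil1- and Neil2-deficient groups. Control clone #7, Neil1 clone #11 and Neil2 clone #1 lie highest for 9, 8 and 8 of the 10 members, and Sod2 is an exception in each group.

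Between stages, Sod2, Gclc and Srxn1 were the members called in controls. From mESCs to EBs, 2 of 10 members were called in controls with 36.0% of all genes called: Sod2 fell by 1.00 ± 0.18 on the log2 scale and Gclc rose by 0.53 ± 0.14. Neil1-deficient cells had 5 members called, all higher (Nfe2l2 0.74, Nqo1 0.85, Gclc 0.90, Gclm 0.92 and Cat 0.63), with 25.2% of genes called and 11.7% higher. Without the libraries of clone #11, Nqo1 lost its call, at 0.69 ± 0.30 (FDR = 0.12), while Nfe2l2, Gclc, Gclm and Cat kept theirs. Neil2-deficient cells had Gclc (0.93) and Gclm (0.68) called with 25.9% of genes. Sod2, which fell in controls, changed by -0.15 ± 0.18 in Neil1- and -0.28 ± 0.18 in Neil2-deficient cells.

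From EBs to EBs + RA the controls had Srxn1 higher (1.12 ± 0.47, FDR = 0.060) and Sod2 lower (-0.66 ± 0.18, FDR = 0.0045), 2 of 10 with 40.3% of all genes called. Neil1-deficient cells added Hmox1 (1.50 ± 0.27), Nqo1 (0.54 ± 0.27, FDR = 0.091) and Cat (0.51 ± 0.24, FDR = 0.080) to a rise of Srxn1 by 2.03 ± 0.48 and a fall of Sod2 by 1.08 ± 0.18, 5 of 10 with 50.2% called. Neil2-deficient cells had Hmox1 (1.05 ± 0.27), Nqo1 (0.66 ± 0.27) and Srxn1 (1.67 ± 0.47) higher and Sod2 lower (-0.77 ± 0.18), 4 of 10 with 42.6% called. Srxn1 and Sod2 thus moved in the same directions in all 3 genotypes.

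The test of the difference between a mutant and control in these steps named fewer members. For the RA step, Hmox1 rose by 1.43 ± 0.38 more in Neil1-deficient cells than in controls (FDR = 0.011) and Gclm by 0.77 ± 0.27 more (FDR = 0.046), 2 of 10 where 27.0% of all genes were called and 14.3% in this direction. No member was called for Neil2 with 15.0% of all genes called, where Hmox1 had 0.99 ± 0.38 (FDR = 0.11) and Gclm 0.59 ± 0.27 (FDR = 0.18). DESeq2 called 1 member for Neil2, without a share of all genes at hand to set beside it. In edgeR 2 members had an unadjusted p under 0.05, against 4195 of 17964 genes. With the clone as a block, which pairs the stages of a clone, Cat (0.71, FDR = 0.047) and Gclc (0.47, FDR = 0.046) joined for Neil1 and Hmox1 for Neil2 (1.04, FDR = 0.030). For the step from mESCs to EBs, Sod2 was the only member called for Neil1 (0.85 ± 0.25, FDR = 0.053, with 7.40% of all genes called and 2.29% in this direction, and 0.91, FDR = 0.089, without the libraries of clone #11), and for Neil2 (8.09% called) Sod2 had 0.72 ± 0.25 (FDR = 0.10) and passed with the clone block (0.67, FDR = 0.082). For Apex1 no member was called in either step by edgeR or DESeq2, with 3.99% and 2.59% of all genes called by edgeR. No member had an unadjusted p under 0.05 there, against 2963 and 2055 of 17964 genes.

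**Figure D4:**
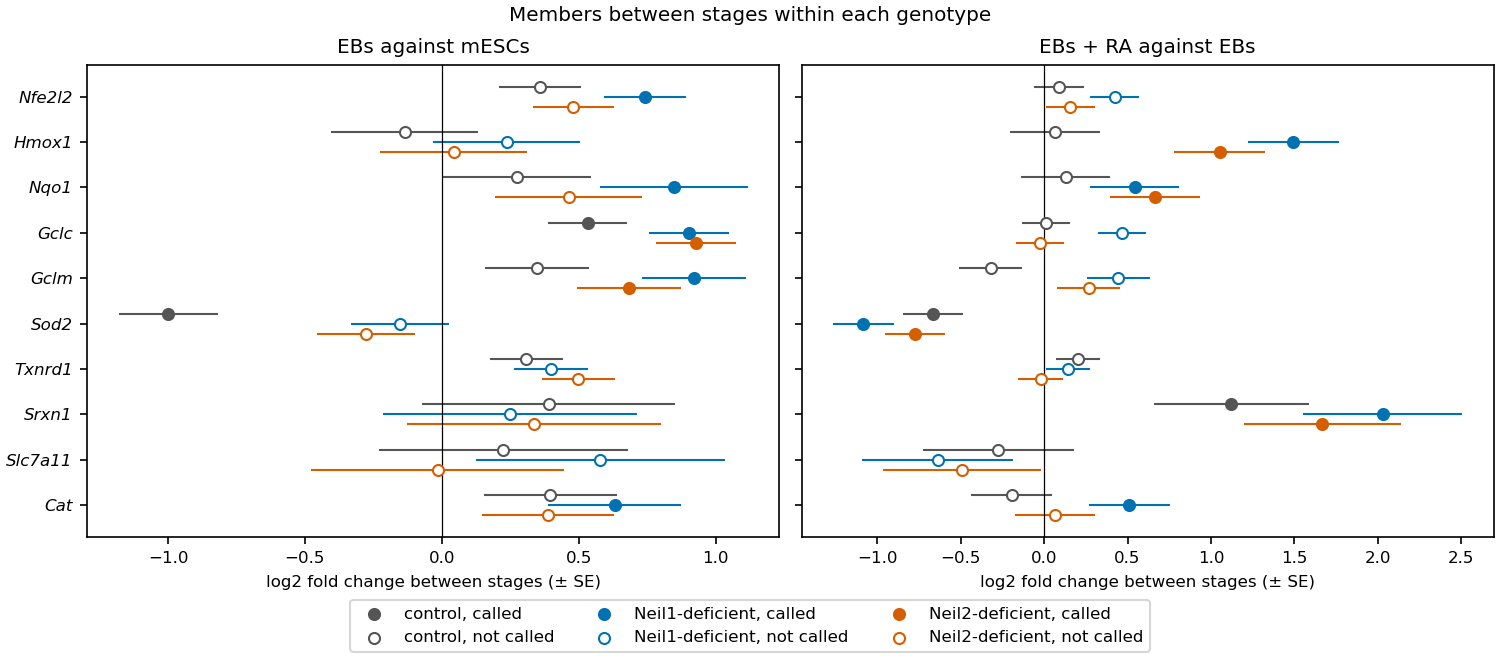
Log2 fold change between stages (x axis, points with standard errors) for the 10 members (y axis) within control, Neil1- and Neil2-deficient cells, with filled points for those called. Sod2 fell by 1.00 in controls in the step from mESCs to EBs and lies at -0.15 and -0.28 for the Neil mutants, and Hmox1 lies at 0.07 for controls in the RA step and at 1.50 and 1.05 for the Neil mutants.

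The Apex1 clone was set against the mean of both Neil groups to ask whether its antioxidant genes differed from theirs. In mESCs Gclc (0.88 ± 0.19) and Nfe2l2 (0.51 ± 0.16, FDR = 0.070) were higher in Apex1-deficient cells. In EBs no member was called with 9.89% of all genes called, Gclc coming nearest at 0.51 ± 0.17 (FDR = 0.10), and in EBs + RA none was called with 12.9% of all genes called. At each of these stages 1 member had an unadjusted p under 0.05 and was called by DESeq2, Gclc in EBs and Hmox1 in EBs + RA. Of all genes, 3506 of 16322 in EBs and 4229 of 16999 in EBs + RA had such a p in edgeR. Counting libraries instead, both Apex1 duplicates lay above all controls for 5 members in mESCs, 7 in EBs and 3 in EBs + RA, where 27.1%, 29.6% and 24.4% of all genes did so. They lay below all controls for Hmox1 and Sod2 in mESCs and for Hmox1 and Slc7a11 in EBs, where 24.0% and 28.9% of all genes did. The duplicates share a clone, so that these counts carry no information on variation between clones.

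For the Neil lines, whose 3 libraries are separate clones, the counts of members with all libraries above all controls were 0, 4 and 5 for Neil1 in mESCs, EBs and EBs + RA, against 11.1%, 21.2% and 24.4% of all genes. They were 0, 3 and 3 for Neil2, against 13.4%, 15.8% and 22.1%. The only member with all Neil libraries below all controls was Gclc in Neil1-deficient mESCs, where 10.0% of all genes were so placed.

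Genes around the 10 members were read from 6 lists holding 86 genes: NRF2 regulators, glutathione enzymes, thioredoxins and peroxiredoxins, superoxide, heme and iron genes, NADPH and detoxification enzymes, and targets of ATF4, the factor of the amino acid and integrated stress response. In mESCs 1 of 83 tested genes was called higher and 1 lower for Neil1, 3 and 0 for Neil2, and 1 and 3 for Apex1, where 1.03% and 0.784%, 1.40% and 0.429%, and 1.20% and 0.870% of all genes were called. In EBs the counts were 13 higher and 5 lower of 84 for Neil1, 14 and 4 of 84 for Neil2, and 7 and 4 of 85 for Apex1. All genes were called at 10.4% and 13.1%, 8.65% and 7.69%, and 4.26% and 4.94% in these comparisons. In EBs + RA they were 35 and 11 of 84 for Neil1, 27 and 9 of 85 for Neil2, and 7 and 1 of 86 for Apex1, and the medians of the log2 fold change were 0.48, 0.36 and 0.08. The shares of all genes called higher and lower were 21.2% and 19.9% for Neil1, 18.3% and 16.6% for Neil2, and 5.13% and 2.35% for Apex1, and the counts of single lists that follow stand against these.

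**Figure D5:**
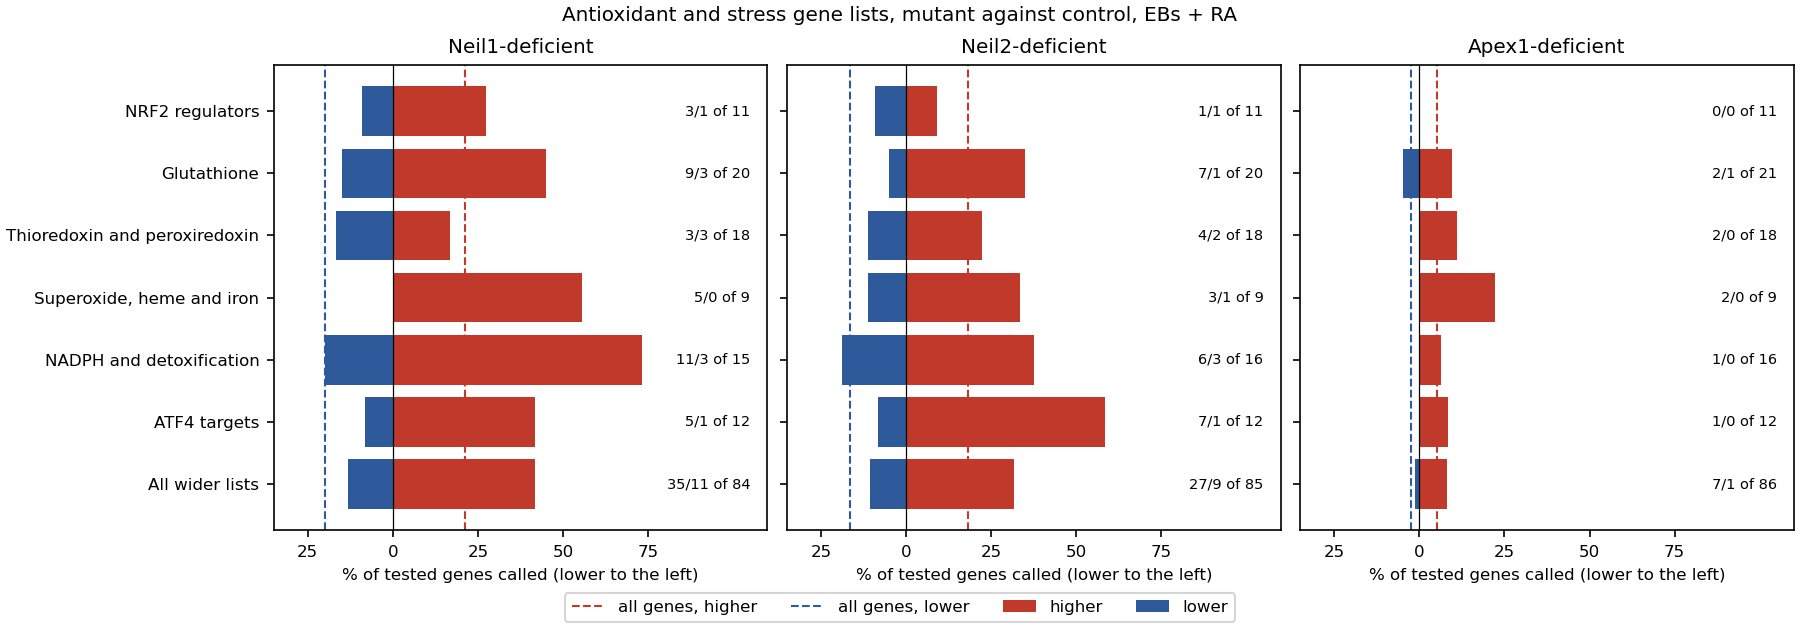
Percentage of the tested genes of each list called higher (red, right of 0) or lower (blue, left of 0) in EBs + RA of each mutant against control, with counts at the right and dashed lines at the percentage of all tested genes. For Neil1, 11 of 15 NADPH and detoxification genes were higher and 3 lower, where 21.2% and 19.9% of all genes were called, and the Apex1 bars rest on 7 higher and 1 lower gene in all.

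Among the regulators in EBs + RA, Sqstm1, whose product p62 sequesters KEAP1, was at 263 CPM in controls and reached 649 CPM with Neil1 and 446 CPM with Neil2 deficiency (1.31 ± 0.22, FDR = 0.0035, and 0.78 ± 0.15, FDR = 0.0069). The small MAF genes Mafk (1.31 ± 0.29) and Mafg (0.77 ± 0.23) rose in Neil1-deficient cells, and Maff did not pass there (0.57 ± 0.25). In Neil2-deficient cells none of these passed both limits (Mafk 0.42, Mafg 0.24 and Maff 0.00). Bach2, a BACH1 relative of lymphoid cells, was lower in both lines (-1.04 and -0.83). Keap1, Bach1 and Nfe2l1 were not called in any mutant at any stage, Keap1 with log2 fold changes of 0.30 for Neil1 and 0.10 for Neil2 in EBs + RA, Bach1 with 0.01 and -0.26 and Nfe2l1 with 0.34 and -0.07. In all, 3 regulators were higher and 1 lower of 11 for Neil1, 1 and 1 for Neil2 and none for Apex1, against 21.2% and 19.9%, and 18.3% and 16.6%, of all genes for the Neil lines, so that with so few genes the counts are near or under the background. In EBs the calls were Maff (-1.09 and -0.86) and Bach2 (-1.88 and -1.94), both lower in Neil1- and Neil2-deficient cells.

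The NADPH and detoxification list had 11 genes higher and 3 lower of 15 in Neil1-deficient EBs + RA and 6 and 3 of 16 in Neil2-deficient ones. Cbr3, a carbonyl reductase, rose by 1.85 ± 0.46 and 1.46 ± 0.49 on the log2 scale from 4.72 CPM in controls, the aldo-keto reductase gene Akr1b8 by 1.62 ± 0.47 in Neil1-deficient cells, and Aldh3a1 by 2.37 in Neil2-deficient cells, though only from 0.113 to 0.596 CPM. The transketolase gene Tkt fell by 1.00 and 0.81 and the mitochondrial isocitrate dehydrogenase gene Idh2 by 0.84 and 0.80 in these lines. In EBs the aldehyde dehydrogenase gene Aldh3a1 (2.51 and 2.03, from 1.25 CPM in controls) and the efflux pump gene Abcc4 (1.51 and 1.54) rose most. Cbr3 was the list's largest rise in the Apex1 clone, by 2.45 ± 0.19 in EBs and 2.41 ± 0.57 in EBs + RA. Me1, malic enzyme, was higher already in mESCs (1.31 ± 0.21 for Neil1 and 1.22 ± 0.19 for Neil2). G6pdx, of the pentose phosphate pathway, was called higher in both Neil lines in EBs (1.21 and 1.08) and EBs + RA (0.69 and 0.64). It lies on chromosome X and had no count in the mESC library of Neil1 clone #11, against 127 and 128 CPM in the other Neil1-deficient mESCs.

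Of the glutathione genes, 9 were higher and 3 lower of 20 in Neil1-deficient and 7 and 1 of 20 in Neil2-deficient EBs + RA, where 21.2% and 19.9%, and 18.3% and 16.6%, of all genes were called. The conjugating transferase genes Gstm1 (371 to 1130 CPM, 1.61 ± 0.58) and Gsta3 (1.43 ± 0.34) rose most for Neil1, and Gpx1, the main cytosolic glutathione peroxidase gene, rose most for Neil2 (175 to 423 CPM, 1.29 ± 0.26). Mgst1 (-1.31) and Gpx8 (-1.09) fell most for Neil1, and Gpx8 (-0.78) was the one lower gene for Neil2. In EBs the phospholipid hydroperoxidase gene Gpx4 was among the largest rises in all 3 mutants (0.92 ± 0.12, 1.16 ± 0.14 and 0.78 ± 0.18). The heme and iron list had 5 higher and 0 lower of 9 for Neil1 and 3 and 1 for Neil2 in EBs + RA. Its leading gene was the biliverdin reductase gene Blvrb, which acts after heme oxygenase, at 24.4 CPM in controls and 68.4, 69.8 and 62.3 CPM in Neil1-, Neil2- and Apex1-deficient cells, called in each.

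Thioredoxin and peroxiredoxin genes were called about as often as all genes or less. In Neil1-deficient EBs + RA 3 of 18 were higher and 3 lower, against 21.2% and 19.9% of all genes, and in Neil2-deficient ones 4 and 2, against 18.3% and 16.6%, with Glrx (1.29 and 1.33) and the stress gene Sesn2 (0.98 and 0.89) higher and Prdx2 (-1.42 and -1.17) and Txnrd3 (-0.84 and -0.61) lower. The ATF4 list had 5 higher and 1 lower of 12 for Neil1, led by Ddit3 (1.75 ± 0.16) and Atf3 (1.70 ± 0.29), and 7 and 1 of 12 for Neil2, led by Trib3 (1.68 ± 0.55) and Chac1 (1.61 ± 0.64). The serine synthesis gene Phgdh was the lower one in both (-0.93 and -0.71). In Apex1-deficient EBs + RA, Sesn2 (0.96 ± 0.19), which both lists hold, was the one ATF4 gene called.

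Markers of other cells moved with these counts in EBs + RA. All 4 neural markers found were called lower in every mutant, and 4 of 5 pluripotency markers were called higher in each. Of all genes, 19.9%, 16.6% and 2.35% were called lower and 21.2%, 18.3% and 5.13% higher for Neil1, Neil2 and Apex1. The summed level of the 7 endoderm markers was 57.1 to 269 CPM in controls, 272 to 476 CPM in Neil1-, 74.7 to 325 CPM in Neil2- and 89.7 to 102 CPM in Apex1-deficient cells. The sum of the 6 macrophage markers was 15.5 to 23.8 CPM in controls, 45.1 to 98.1 CPM in Neil1-, 29.6 to 41.0 CPM in Neil2- and 17.3 to 18.6 CPM in Apex1-deficient cells, with 3 of the 6 markers below 1 CPM in every library of each group. Erythroid sums stayed at or below 3.22 CPM. The shift of cell types and the change in the members cannot be told apart in these bulk libraries.

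The members' chromosomes were described in RNA by the median log2 difference of their genes from the controls. Copy number was not measured. Over the chromosomes that hold members these medians lay between -0.32 and 0.11 in the Neil1-, -0.12 and 0.11 in the Neil2- and -0.16 and 0.09 in the Apex1-deficient libraries. Chromosome 9 carries Gclc and also the targeted gene Neil1. The lowest values belonged to this chromosome in Neil1 clone #11, at -0.25 in mESCs, -0.28 in EBs and -0.32 in EBs + RA. The Gclc level of this clone was the lowest of its group in mESCs and EBs (36.6 and 67.8 CPM) and the highest in EBs + RA (121 CPM), and the part of the chromosome in these values was not tested. For chromosome 8, home of both Hmox1 and Nqo1, the Neil medians in EBs + RA were -0.09 to 0.03, and relative to the median of their chromosome the Neil1 values of Hmox1 and Nqo1 were 1.48 and 1.32.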

How the data were processed

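The authors prepared unstranded poly(A) TruSeq libraries sequenced for 51 cycles, aligned the reads to NCBIM37 using TopHat 2.0.9 and assigned them to genes by HTSeq-count 0.5.4. The submitters' processing notes also name Bowtie2 2.1.0 and DESeq2 1.6.3, and the strand setting of the counting is not given in the sources used here. The deposited files hold raw counts per gene without normalization. Rows of HTSeq-count that name no gene took 21.79% to 30.43% of reads and were left out. Of 37991 identifiers, 37205 were named from the NCBIM37 annotation.

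Counts were tested with edgeR 4.0.16 (filterByExpr, TMM, robust quasi-likelihood test, Benjamini-Hochberg adjustment over all genes tested) under R 4.3.3 and called, by the limits of the study, where the FDR was under 0.1 and the log2 fold change beyond 0.5 in size; differences between steps were called on FDR alone. Neil1 and Neil2 were each compared with the 3 controls of the stage. Apex1 duplicates were summed to 1 sample and tested in a fit with all genotypes of the stage, so that their variance is borrowed from the other groups. Steps between stages used 1 fit over all groups. SE is the log2 fold change divided by the root of the quasi-likelihood F. The scripts were tested on simulated data. DESeq2 1.42.0 was an alternative.

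Per the labels a clone is the same line at every stage. The libraries of Neil1 clone #11 differed between mESCs and later stages in chromosome X counts. Their chromosome 9 medians were alike, at -0.25, -0.28 and -0.32 in mESCs, EBs and EBs + RA, and whether they are the same cells was not tested. Deviations of a clone from its group correlated over genes at 0.17 to 0.49 between EBs and EBs + RA, and at -0.49 to 0.20 between mESCs and EBs. The clone was therefore an alternative block. Numbers shared by genotypes name different clones; only for Neil1 and control in EBs + RA did all 3 pairs correlate above 0.1 (0.23 to 0.30). No 2 libraries of a group were copies, with chi-squared per degree of freedom of at least 5.58 for the Apex1 duplicates and 8.97 for clones. P-values measure the spread between clones of 1 parental line. The members and lists were chosen with earlier results of these data known. All members were named in every comparison, and from each wider list the 2 largest called rises and falls and the regulators Keap1, Bach1, Nfe2l1, Mafg, Maff, Mafk and Sqstm1; Gpx4 as a shared gene and G6pdx were chosen after their values were seen.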

Additional observations from a re-analysis of the deposited data

Results flagged for a closer look

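Of the members, 3 changed between stages by a different amount in Neil1-deficient cells than in controls by the test of the difference in edgeR. Sod2, from mESCs to EBs, differed by 0.85 ± 0.25 on the log2 scale (FDR = 0.053), as it changed by -0.15 in Neil1-deficient cells and fell by 1.00 in controls. Hmox1, from EBs to EBs + RA, differed by 1.43 ± 0.38 (FDR = 0.011), with 1.50 against 0.07. Gclm, in the same step, differed by 0.77 ± 0.27 (FDR = 0.046). Such a difference was called for 7.40% of all genes in the step from mESCs and for 27.0% in the RA step. In all 3 cases the 3 Neil1-deficient libraries lay above the 3 controls at the later stage, as did 21.2% of all genes in EBs and 24.4% in EBs + RA. Gclm was so placed already in EBs.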

How the results depend on the processing

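No called member changed sign under any alternative run, and neither RLE size factors nor dropping the filter on low counts moved a count of members by more than 1.5 times. At an FDR under 0.05 in place of 0.1, 3 members were called for Neil1 in EBs + RA, with 34.4% of all genes called. In EBs the count was 0 for Neil2 with 12.1% called and 0 for Apex1 with 4.48% called. For Apex1 against the Neil groups in mESCs it was 1, against 1188 of 16557 genes. The count was 0 for the Neil1 difference from mESCs to EBs, and 1 for controls and 3 for Neil1 from EBs to EBs + RA. At the limit of 0.1, 7.40%, 40.3% and 50.2% of all genes were called in these 3 comparisons. DESeq2 called 1 member for Apex1 in mESCs, with 10.2% of all genes called. For Apex1 against the Neil groups it called 1 in EBs, against 2062 of 16322 genes, and 1 in EBs + RA, where edgeR called 12.9% of all genes. DESeq2 called 1 for the Neil2 difference in each step, where edgeR called 8.09% and 15.0% of all genes. With the Apex1 duplicates as 2 libraries 3 members were called in mESCs and 2 in EBs + RA, with 16.9% and 24.8% of all genes called. With all 4 genotypes in 1 fit 2 were called for Neil2 in EBs + RA, with 32.8% of all genes called. The replicate block by clone gave 4 members for the Neil1 and 1 for the Neil2 difference in the RA step and 1 for Neil2 from mESCs to EBs. The main fit called 27.0%, 15.0% and 8.09% of all genes in these comparisons. With replicate numbers as a block 6 members were called for Neil1 in EBs + RA, with 41.2% of all genes called. The block moved no other count of members by more than 1.5 times.

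Without 1 library at a time, 0 to 3 members were called for Apex1 in mESCs, 0 to 2 at the EB stage and 0 to 1 after RA. The counts at these stages were 0, 3 and 3 to 6 for Neil1, and 0, 0 to 1 and 2 to 4 for Neil2. Of all genes, the Apex1 fits called 0.00% to 18.0%, 3.52% to 9.26% and 1.62% to 11.7%. The Neil1 fits called 0.00% to 12.6%, 20.2% to 22.9% and 28.2% to 44.2%, and the Neil2 fits 0.00625% to 9.35%, 8.86% to 23.5% and 24.5% to 40.1%. From mESCs to EBs the counts of members were 1 to 3 for controls, 4 to 5 for Neil1, 1 to 4 for Neil2, and 0 to 1 for the differences of Neil1 and of Neil2. On all libraries 36.0%, 25.2%, 25.9%, 7.40% and 8.09% of all genes were called in these comparisons. From EBs to EBs + RA the counts of members were 1 to 2 for controls, 3 to 6 for Neil1, 3 to 4 for Neil2, 1 to 5 for the Neil1 and 0 to 2 for the Neil2 difference. On all libraries 40.3%, 50.2%, 42.6%, 27.0% and 15.0% of all genes were called there. Shares of all genes in these refits of the steps are not given here, so that their counts are no result about the members. Over single members and alternatives, 236 values kept their side of the threshold, 41 lost a call and 19 gained one. The cause of these changes was not tested. Slc7a11 stood at 1.10 CPM or less throughout, and small changes in it could not be seen.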
